A study of Bos taurus and Felis catus with 14 samples.

Results

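The microRNA families mir-199, mir-214 and mir-3120 were represented by 9 of the 1305 predicted precursor loci, 5 of 810 in cow and 4 of 495 in cat. A locus was counted when its name held 1 of these 3 family numbers as a whole number, with any letter or copy suffix, and names beginning with as- (the prefix for a hairpin called opposite a named microRNA) were left out. Cow had 3 mir-199 copies, 1 mir-214 locus and 1 mir-3120 locus, whereas cat had 3 mir-199 copies, 1 mir-214 locus and no locus named mir-3120.

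The bovine set was called on 10 small RNA libraries, each from another tissue: retina, iris, optic nerve, dental pulp, oral papillae, bone marrow, submandibular lymph node and penis of 1 steer, brain stem of another steer and corium of yet another. The feline set was called on 4 libraries, 2 from skin and 2 from muscle, taken from 3 cats. The libraries of a species were pooled before calling, so each species had 1 list of loci, no replicate and no value per sample, and tissue cannot be told apart from species in any difference between cow and cat. Each locus came with the first and last base of its hairpin and of its mature products, the strand and a name, so all values below are positions and lengths in nucleotides (nt), and they are descriptions with no test.

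A microRNA is cut from a hairpin whose arms each can give a product of about the length of a small interfering RNA. The product of the arm nearer the 5′ end is called 5p and that of the other arm 3p. mir-199 and mir-214 are vertebrate families known mostly from connective tissue, muscle and developing skeleton. They lie mostly in introns of the dynamin genes, which encode the GTPases that pinch off endocytic vesicles. There they are transcribed from the strand opposite to the host gene. mir-3120 is the mirror hairpin of mir-214: it comes from the same stretch of DNA read on the other strand, the strand of the host gene. A bidirectionally transcribed stretch of this kind can give up to 4 products, a pair from each strand.

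Of the 9 loci, 8 lay on the minus strand, and bta-mir-3120 alone lay on the plus strand. All 9 had a product from both arms, which is 100% of 5 loci in cow (exact Clopper-Pearson 95% interval 47.8 to 100) and 100% of 4 in cat (39.8 to 100). Over all loci the share with both arms was 72.5% in cow and 65.7% in cat, so the intervals of so few loci reached down below the level of the whole set in both species. The whole sets include loci without a family name. Of 164 names of known families found in both sets, 139 had both arms in both species. The intervals cover counting error only and treat the loci as independent, although the mir-199 copies share reads.

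The mir-214 stretch was called on both strands in both species, under another name in each. In cow, bta-mir-214 lay on chromosome 16 from 40485809 to 40485906 on the minus strand, a hairpin of 98 nt, and bta-mir-3120 lay inside it from 40485824 to 40485888 on the plus strand, a hairpin of 65 nt. In cat, fca-mir-214 lay on the minus strand of sequence NC_018739.2, from 14408571 to 14408669, and its hairpin was 99 nt long. The feline hairpin facing it was called as-fca-mir-214, ran from 14408585 to 14408651 on the plus strand and was 67 nt long. Because of its as- prefix it is not among the 9 loci, and it is described here as the positional counterpart of bta-mir-3120.

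In both species the plus-strand hairpin lay wholly within mir-214. The shared stretch was 65 nt in cow, which is all of bta-mir-3120 and 66.3% of bta-mir-214, and 67 nt in cat, which is all of as-fca-mir-214 and 67.7% of fca-mir-214. The part of mir-214 that had no facing hairpin was split unevenly, with 15 nt on the side of the lower coordinates and 18 nt on the other side in cow, and 14 and 18 nt in cat. The mir-214 hairpin was long for either set: 92.7% of bovine and 94.1% of feline loci had shorter hairpins, against medians of 66 nt (range 41 to 146) in cow and 65 nt (range 42 to 121) in cat. By contrast, bta-mir-3120 at 65 nt and as-fca-mir-214 at 67 nt were of ordinary length. These lengths and overlaps depend on the hairpin ends that the caller chose.

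**Figure D1:**
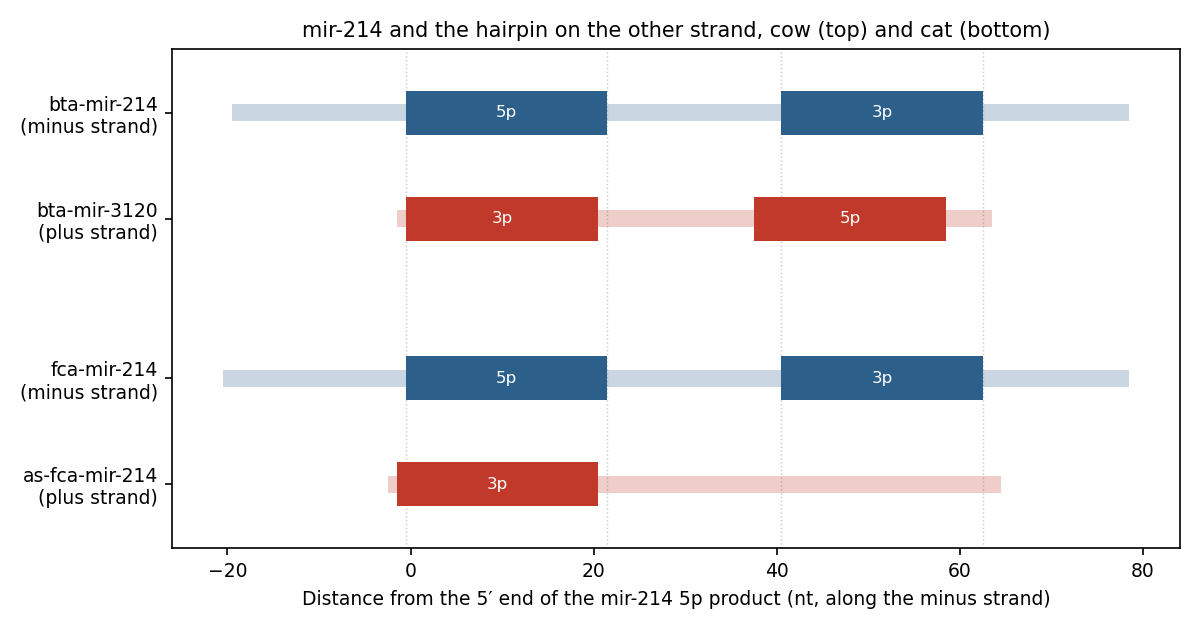
Hairpins (pale bars) and mature products (dark boxes) of mir-214 and of the hairpin on the other strand, in cow (top) and cat (bottom), by distance in nt from the 5′ end of the mir-214 5p product along the minus strand. The mir-214 products fill 0 to 21 and 41 to 62 in both species, and the plus-strand hairpin carries 2 products in cow and 1, the 3p product, in cat.

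Hairpins that face each other were a minority in both sets, and the mir-214 pair stood in the upper part of them by length of overlap. That order rests on the hairpin ends that the caller chose. Between the outer ends of the products, the mir-214 overlap was 59 nt in cow and 21 nt in cat. The ranking was not repeated on that measure. A hairpin of the other strand was overlapped by 50 of 810 bovine loci (6.17%) and 34 of 495 feline loci (6.87%). They formed 25 pairs in cow and 17 in cat, with a median overlap of 62 nt in both species, a range of 50 to 103 nt in cow and a range of 50 to 73 nt in cat. The overlap of 65 nt at bovine mir-214 was exceeded in 4 pairs and was longer than that of 20. Those 4 were mir-219-1 with its antisense hairpin (103 nt), the unnamed loci bta-Novel143 and bta-Novel319 (72 nt), bta-mir-6536-1 with bta-mir-6536-2 (68 nt) and mir-200a with its antisense hairpin (66 nt). The overlap of 67 nt at feline mir-214 was exceeded in 2 pairs, equalled in 1 and longer than that of 13. The 2 longer feline overlaps were those of fca-Novel63 with fca-Novel53 (73 nt) and fca-Novel117 with fca-Novel122 (68 nt).

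**Figure D2:**
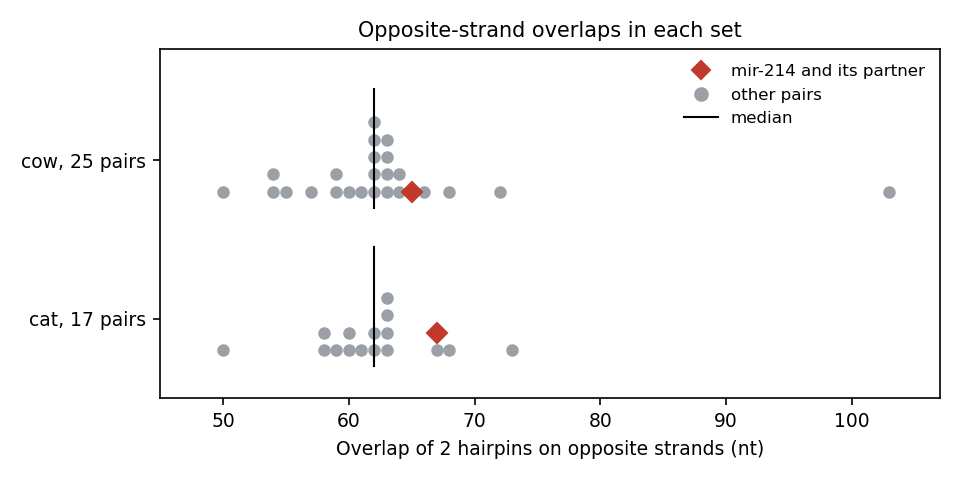
Length in nt shared by the hairpins of each opposite-strand pair, for the 25 bovine and 17 feline pairs (grey points, stacked where equal), with the mir-214 pair as a red diamond and the median of 62 nt as a line. By the hairpin ends that were called, the mir-214 pair lies to the right of the median in both species, at 65 nt in cow and 67 nt in cat.

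Nesting was common among facing hairpins of either strand, and a longer hairpin with so much uncovered was less so. A hairpin lay wholly inside the other in 17 of 25 bovine and 12 of 17 feline pairs. The overlap covered less than 75% of the longer hairpin in 3 bovine pairs, those of mir-200a (65.3%), mir-214 (66.3%) and mir-106b (73.3%). It did so in 3 feline pairs, those of mir-193a (67.4%), mir-214 (67.7%) and fca-Novel63 with fca-Novel53 (74.5%). By the hairpin ends that were called, the mir-214 pair was thus among the 3 least covered pairs of each species.

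The 5p product of mir-214 and the 3p product of the mirror hairpin covered nearly the same bases. In cow, bta-mir-214-5p ran from 40485866 to 40485887 (22 nt) and bta-mir-3120-3p from 40485867 to 40485887 (21 nt). They shared 21 nt, with their ends 1 and 0 nt apart, so that the 5′ end of bta-mir-214-5p and the 3′ end of bta-mir-3120-3p fell on the same base. In cat, fca-mir-214-5p ran from 14408628 to 14408649 (22 nt) and the 3p product of as-fca-mir-214 from 14408629 to 14408650 (22 nt). They shared 21 nt as well, with both ends 1 nt apart, and the feline product ran 1 nt past the 5′ end of fca-mir-214-5p.

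Measured from the 5′ end of mir-214-5p, the mirror 3p product began at position 20 in both species, and it ended at 0 in cow and at -1 in cat. Its 5′ end, which sets the seed of a microRNA (the bases near the 5′ end that pair with targets), thus lay at the same place relative to mir-214 in cow and cat, and the difference of 1 nt was at the 3′ end. The mirror hairpin itself spanned -1 to 63 in cow and -2 to 64 in cat, 1 nt longer at each end in cat.

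The other arm faced less exactly. In cow, bta-mir-214-3p ran from 40485825 to 40485846 (22 nt) and bta-mir-3120-5p from 40485829 to 40485849 (21 nt), so they shared 18 nt, with their ends 4 and 3 nt apart. In cat no 5p product was called on the plus strand, and fca-mir-214-3p, from 14408587 to 14408608 (22 nt), faced none. From positions alone it cannot be said whether the feline 5p product was absent or fell under the caller's limits, read numbers were not used here, and bovine tissues outnumbered feline ones.

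Set beside all facing products, the 5p side of mir-214 lay at the high end of the shared length and the 3p side at the low end. Across the 44 pairs of facing products in cow the shared length had a median of 20 nt and a range of 16 to 21 nt, and 7 pairs reached 21 nt, the value of bta-mir-214-5p with bta-mir-3120-3p. Only 5 of the 44 shared fewer than the 18 nt of bta-mir-214-3p with bta-mir-3120-5p, and 4 shared exactly 18 nt, that pair included. In cat the 25 facing pairs had a median of 20 nt and a range of 17 to 22 nt, and 6 reached the 21 nt of fca-mir-214-5p. The distance between the midpoints of the products gave the same order: 0.5 nt on the 5p side and 3.5 nt on the 3p side in cow, where the median over all facing pairs was 1.5 nt and 8 pairs reached 3.5 nt. It was 1.0 nt at feline mir-214, equal to the median of 1.0 nt in that species.

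The different offsets on the 2 sides of the bovine stretch can also be put as different spans of the hairpins' products, which is no separate observation. From the outer end of the 5p product to the outer end of the 3p product, bta-mir-214 spanned 63 nt and bta-mir-3120 spanned 59 nt. The products of bta-mir-214 were 19 nt apart and those of bta-mir-3120 were 17 nt apart, against a median of 16 nt (quartiles 14 and 18) over all bovine loci with both arms. With the spans flush at the 5p end of bta-mir-214, the shorter span of bta-mir-3120 ended 4 nt inside that of bta-mir-214 at the other end.

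In most bovine pairs both hairpins gave products from both arms (19 of 25, the mir-214 pair included), whereas 10 of 17 feline pairs did so, the mir-214 pair not among them. Over the whole set, loci with the as- prefix numbered 22 in cow, 17 with both arms and 5 with 1 arm, and not all of them faced a called hairpin. In cat they numbered 5, and as-fca-mir-214 was among the 3 with 1 arm. Thus fca-mir-214, as-fca-mir-214 and their bovine counterparts gave 4 products in cow and 3 in cat from the same stretch.

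The hairpin of mir-214 was called with ends far beyond its products. In cow 19 nt lay outside the 5p product and 16 nt outside the 3p product, and in cat 20 and 16 nt, so the difference of 1 nt in hairpin length between the species was at the 5p end. Over all loci with both arms, the median flank was 2 nt at the 5p end and 3 nt at the 3p end in each species. Flanks of at least 16 nt on both sides were found in 64 of 587 bovine loci (10.9%) and 25 of 325 feline loci (7.69%). The flanks of bta-mir-3120 were 5 nt at the 5p end and 1 nt at the 3p end, and the mir-199 copies had flanks of 1 to 3 nt. Per the study's methods, the caller chose each hairpin span among several candidates, so flanks and hairpin lengths depend on that choice. With equal products and spacing in both species, the mir-132 hairpin was 98 nt in cow and 64 nt in cat. That of mir-133a-2 was 66 nt in cow and 100 nt in cat.

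The 3 mir-199 copies had products of the same lengths in both species. In cow, bta-mir-199a-1 lay on chromosome 16 from 40491614 to 40491678 (65 nt), bta-mir-199a-2 on chromosome 7 from 16508928 to 16508994 (67 nt), and bta-mir-199b on chromosome 11 from 98867679 to 98867742 (64 nt). In cat, fca-mir-199a-1 lay on NC_018739.2 from 14414291 to 14414355 (65 nt), fca-mir-199a-2 on NC_018724.2 from 8197083 to 8197149 (67 nt), and fca-mir-199b on NC_018735.2 from 86830995 to 86831059 (65 nt). All 6 were on the minus strand, and the 5p product measured 23 nt and the 3p product 21 nt at each of them.

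This combination was uncommon, at 34 of 587 bovine loci with both arms (5.79%) and 22 of 325 feline ones (6.77%), where the median was 22 nt for either arm. The copies are not independent in this respect. mir-199a-1 and mir-199a-2 are known to give the same mature products, and the 3p products of mir-199a and mir-199b are known to be alike, so reads from 1 copy align to another. The authors divided such reads equally among their positions, and where copies share a product, which copy gave it cannot be told from these sets.

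What set mir-199a-2 apart from the other copies was the spacing between the arms, the stretch that holds the terminal loop. It was 16 nt in mir-199a-1 and mir-199b and 18 nt in mir-199a-2, the same in cow and cat for each copy. The hairpin with the wider spacing was accordingly the longest of the 3 in each species, at 67 nt. The hairpins of mir-199a-1 and mir-199a-2 had flanks of 3 nt at the 5p end and 2 nt at the 3p end in both species. So did fca-mir-199b, and bta-mir-199b was the exception with 1 and 3 nt, which made it 1 nt shorter than fca-mir-199b although its products and spacing were the same.

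**Figure D3:**
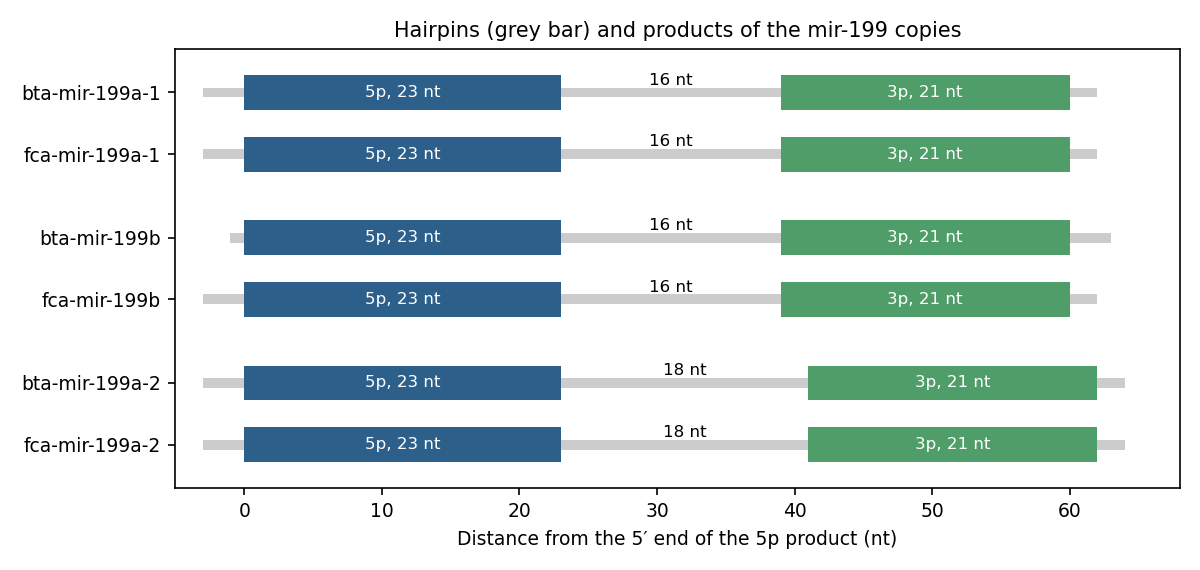
Hairpins (grey bars) and 5p and 3p products (blue and green boxes) of the 3 mir-199 copies in cow (bta) and cat (fca), by distance in nt from the 5′ end of the 5p product. All 6 loci have products of 23 and 21 nt, and the spacing is 16 nt except in mir-199a-2, where it is 18 nt.

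Few families kept all product lengths alike. Of the families with at least 3 loci that gave both arms, 6 of 22 in cow (27.3%) and 3 of 14 in cat (21.4%) had the same pair of lengths at every locus. Those were mir-124, mir-125, mir-199, mir-200, mir-26 and mir-9 in cow and mir-199, mir-26 and mir-9 in cat. Copies that share reads, as those of mir-199 do, are not independent in product length, and the families were not matched for this. The hairpin lengths of the mir-199 copies differed by at most 3 nt in cow, where the median range over the 22 families was 7.5 nt and 4 families had a smaller one. In cat they differed by at most 2 nt, the median range over the 14 families was 5.0 nt, and 1 family had a smaller one.

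Cow and cat could be compared at 4 of these loci, mir-199a-1, mir-199a-2, mir-199b and mir-214, since bta-mir-3120 had no feline namesake. At all 4 the 5p length, the 3p length and the spacing were equal in the species, with 16 nt of spacing in mir-199a-1 and mir-199b, 18 nt in mir-199a-2 and 19 nt in mir-214. Among all 139 names found in both sets with both arms, these measures were equal in 75 (54.0%), of which 71 were among the other 135. The hairpin length was equal at 2 of the 4, mir-199a-1 and mir-199a-2, and at 58 of the 139 (41.7%). With only 4 loci, of which the mir-199 copies share reads, nothing particular to these families can be read from the counts.

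**Figure D4:**
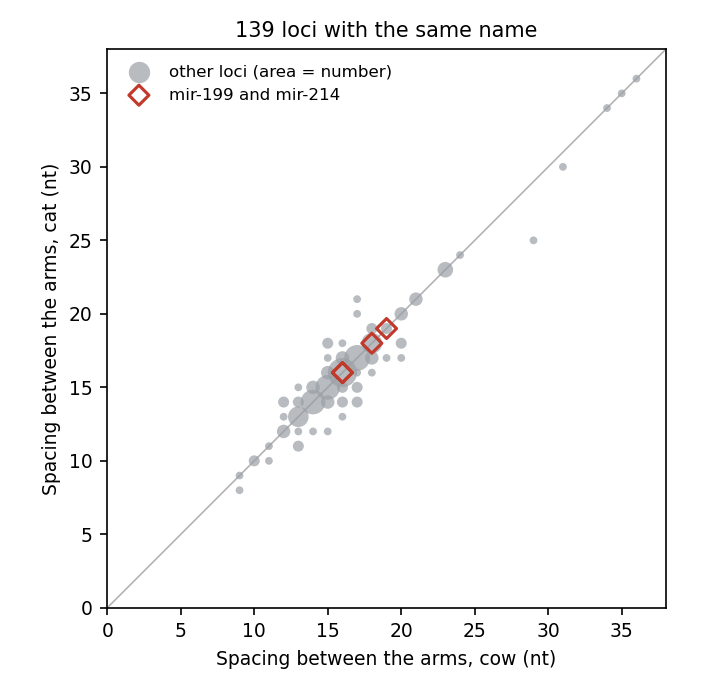
Spacing between the 5p and 3p products in cow (x axis, nt) and cat (y axis, nt) for the 139 loci with the same name and both arms, with the line of equality. Grey points have an area proportional to the number of loci, and the red diamonds, at 16 (2 loci), 18 and 19 nt, are mir-199 and mir-214.

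mir-199a-1 and mir-214 lay in the same order and on the same strand in both species, with nearly the same distance between them. The hairpin of bta-mir-199a-1 lay 5707 nt upstream of that of bta-mir-214, and fca-mir-199a-1 lay 5621 nt upstream of fca-mir-214. The feline gap was 86 nt shorter, 1.51% of the bovine gap. To the plus-strand hairpin the gap was 5725 nt in cow, to bta-mir-3120, and 5639 nt in cat, to as-fca-mir-214. This is the same difference of 86 nt and no second measurement, since that hairpin ended 18 nt inside mir-214 in both species. From the outer end of mir-199a-1 to the outer end of mir-214 the group spanned 5870 nt in cow and 5785 nt in cat.

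Other neighbours gave a background for this distance. Within 10 kb on the same strand, 29 pairs of neighbouring loci carried the same names in both species. The feline gap divided by the bovine gap was 0.985 for mir-199a-1 and mir-214, and over the other 28 pairs it had a median of 1.02, quartiles of 0.991 and 1.06 and a range of 0.668 to 1.18. The gap differed between the species by a median of 4.66% over those pairs, and 6 of them differed by less than the 1.51% of mir-199a-1 and mir-214. In nt, the difference of 86 nt at mir-199a-1 and mir-214 was larger than that of most other pairs, whose gaps were mostly far shorter. In cow only 1 other gap was above 5 kb, that of let-7a-2 and mir-100, with 5760 nt in cow and 5721 nt in cat. It was chosen for mention after its value was seen.

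**Figure D5:**
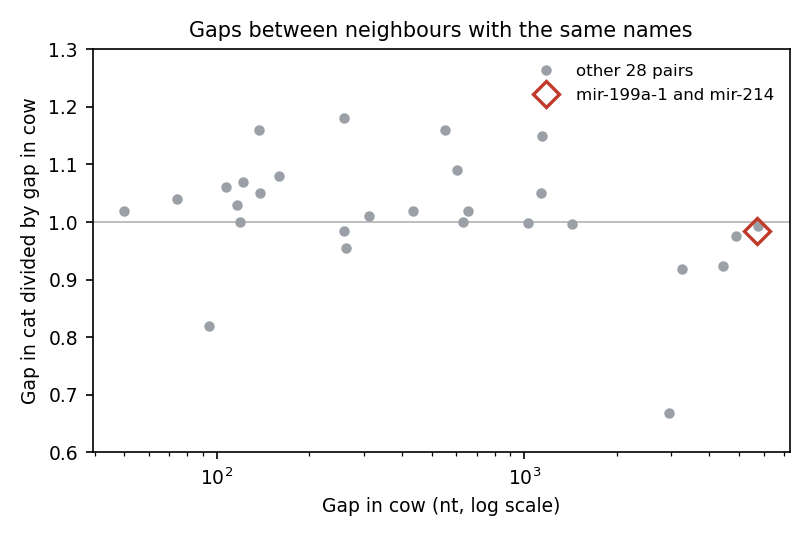
Gap between neighbouring loci with the same names in both species: the bovine gap (x axis, nt, log scale) against the feline gap divided by the bovine gap (y axis), for 28 other pairs (grey points) and mir-199a-1 with mir-214 (red diamond). The diamond is at 5707 nt and a ratio of 0.985, with the point of the let-7a-2 and mir-100 pair inside its outline, and the grey points range from 0.668 to 1.18.

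With hairpins joined at gaps of up to 10 kb, the group of mir-214 held 3 loci in each species: mir-199a-1, mir-214 and the plus-strand hairpin. Beyond it the nearest loci were far away, bta-Novel163 at 2925119 nt from bta-mir-214 in cow and fca-mir-350 at 7614860 nt from fca-mir-214 in cat. The other mir-199 copies stood alone within 10 kb, and no mir-199 locus was overlapped by a hairpin of the other strand (0 of 6). Over all loci that share was only 6.17% in cow and 6.87% in cat, so the count says nothing particular to mir-199.

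Near mir-199b, a locus named mir-219 was found in both species. It lay upstream on the same strand, bta-mir-219-1 at 129403 nt in cow and fca-mir-219 at 123122 nt in cat. In cow a hairpin opposite to it, as-bta-mir-219-1, was also called, and in cat fca-Novel148 lay between, 19466 nt upstream of fca-mir-199b. The nearest locus to mir-199a-2 had no family name and lay downstream in both species, bta-Novel18 at 228711 nt on the plus strand in cow and fca-Novel69 at 239333 nt on the minus strand in cat. Further downstream on the minus strand lay bta-Novel5 at 393983 nt in cow and fca-Novel70 at 335251 nt in cat, and bta-mir-2454 followed at 591045 nt in cow. The paper reports bta-Novel5 and fca-Novel70 as a microRNA family in the same TYK2 intron of both species. All of these neighbours beyond 10 kb were picked after their values were seen.

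By name, 5 of the 6 microRNA genes that a RefSeq gene table of the bovine assembly ARS-UCD2.0 lists for these families had a locus in the bovine set. The share over all microRNA genes of that table was not computed, so whether this count is usual cannot be said. In that table MIR199A-1, MIR214 and MIR3120 lie within DNM3, MIR199A-2 within DNM2 and MIR199B within DNM1, the dynamin genes, and MIR214 overlaps MIR3120. MIR199C, which it places within NUP88, a nuclear pore gene, had no locus in the set. The table also lists MIR3604-1 overlapping MIR199A-2 and MIR3604-2 overlapping MIR199B, and neither set held a locus named mir-3604. The table is of another assembly than the positions given here, so it was used for names and nesting alone. In human the copy beside mir-214 carries the name mir-199a-2, so the copy numbers used here are those of the bovine and feline names and do not carry over to human.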

How the data were processed

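Small RNA libraries (TruSeq) were made from 10 bovine and 4 feline samples. Per the submitters' processing notes and the study's methods, the authors trimmed reads with cutadapt 1.15, aligned them with Bowtie 1.2.11, divided reads with several positions equally among them, and called hairpins and products with miRWoods on the pooled libraries of a species, keeping the best scored of overlapping hairpins. The deposited values are the start and end positions, counted from 1, with strand and name. No count, score or p-value comes with a locus in the deposited sets, and read numbers that the study tabulated elsewhere were not used here. A locus that was not called is not shown to be absent. The sources used here do not name the genome build, although the feline sequence names carry a version number. Sequences were not analysed here.

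From these positions, lengths, spacing between arms, flanks, gaps and overlaps were computed with Python 3.11.15, pandas 2.3.3, numpy 2.4.6, scipy 1.17.1 and matplotlib 3.10.9, and the code was tested on made-up loci with known answers. Loci at gaps of up to 10 kb formed a group. No test was run, since each species had 1 pooled call set. The loci named are the members, those within 10 kb of them, and up to 5 other opposite-strand pairs a species by overlap; loci, families and pairs beyond these were chosen after their values were seen. Members and lists were chosen with earlier results of these data known. Alternatives were other definitions of membership, overlap, offset, gap and grouping.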

Additional observations from a re-analysis of the deposited data

How the results depend on the processing

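Values are positions in 1 pooled call set a species, so leaving out a replicate could not be run. No paired analysis was possible because the results come from no test and the sets hold no replicates. Membership was the same with plain names only, and counting the as- name raised cat from 4 to 5 loci while cow stayed at 5. Measured between the outer ends of the products instead of the hairpins, the mir-214 overlap was 59 nt in cow and 21 nt in cat, where the plus-strand hairpin has 1 product. Expressed as distance between midpoints, which is another quantity than shared bases, the offsets were 0.5 and 3.5 nt in cow and 1.0 nt in cat. The gap from mir-199a-1 to mir-214 was 5805 nt in cow and 5720 nt in cat from start to start, and 5728 and 5643 nt between products, longer in cow each way. With joining at 1 or 5 kb, or on the same strand only, the group of mir-214 held 2 loci in each species, and with 50 kb it held 3. Among opposite-strand pairs with a family name, 85.0% of the others in cow and 90.0% in cat were shorter than that of mir-214, against 83.3% and 81.2% of all others. The median ratio of gaps was 1.02 at 10 and 50 kb. Read numbers were not used here, which limits what a product that was not called can show.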
